A study of Mus musculus with 6 samples.

Results

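The autophagy machinery genes described here are the 39 of 24411 listed mouse genes whose symbol begins with Atg and a digit, Ulk, Wipi, Gabarap or Map1lc3, together with Becn1, Ambra1, Uvrag, Rb1cc1, Vmp1, Epg5, Sqstm1, Nbr1, Optn and Tax1bp1. The prefixes gave 29 of the genes and the names gave the other 10. All 39 were kept by the filter on low counts, which left 11692 genes for testing. The rule uses the symbols alone, though it was set with earlier results of these data known.

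Macroautophagy encloses a portion of cytoplasm in a double membrane, the autophagosome, and delivers it to the lysosome. The ULK1 kinase complex starts the process, the Beclin 1 lipid kinase complexes mark the growing membrane with phosphatidylinositol 3-phosphate (PI3P), and lipid transfer proteins and PI3P-binding effectors let it expand. Ubiquitin-like enzymes then attach the Atg8 proteins (the LC3 and GABARAP groups) to the membrane, and cargo receptors that bind these proteins bring in protein aggregates, organelles and bacteria. In macrophages much of the same machinery also serves the handling of engulfed particles.

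The libraries came from macrophages of C57BL/6 mice. Monocytes of the bone marrow were sorted by surface LFA1 (the integrin of the Itgal and Itgb2 chains) and Itgam into an LFA1-lo Itgam-lo and an LFA1-hi Itgam-hi population, with 3 libraries of each. Both populations were then cultured alike for 7 days with M-CSF (20 ng/ml), the growth factor that turns monocytes into macrophages, in RPMI with 10% FBS that was replaced on day 4. The names LFA1-lo and LFA1-hi therefore describe the monocytes that were sorted and not the macrophages that were sequenced, and the question answered is which autophagy transcripts differ between the macrophages each population gave rise to. The labels give no genotype beyond the strain and no age or sex of the mice, and they do not tell whether replicates were separate mice or cultures. The p-values below therefore measure only the spread between these libraries, which may be technical.

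Total expected counts ran from 15191262 to 17614509 per library, and 13248 to 13585 genes had a count above 0. Levels are given as CPM, counts scaled to the library size, on which 3 counts are worth 0.170 to 0.198. On the main axis of variation between libraries (69.5% of the variance) the groups separated, with LFA1-lo 2 farthest from LFA1-hi (−32.1 against −23.3 and −21.2 for the other LFA1-lo libraries and 23.5 to 27.1 for LFA1-hi), and on the next (10.6%) LFA1-lo 1 and LFA1-lo 2 lay at opposite ends. Of 7 macrophage markers all were tested and 4 were lower in LFA1-hi (Adgre1, Csf1r, Cd68 and Lyz2). The summed level of the 7 was 17396 to 22682 CPM in LFA1-lo against 13679 to 15947 CPM in LFA1-hi. Lyz2 made up most of it (means of 12918 and 9704 CPM) and passed only just, with overlapping libraries (edgeR adjusted p 0.04996). Without a library, 2 to 5 of the 7 were lower. All 8 markers of dividing cells were higher in LFA1-hi, with sums of 542 to 926 CPM in LFA1-lo against 1978 to 2213 CPM in LFA1-hi. Neutrophil markers (8 of 9 found) summed to 11.9 to 41.8 CPM in LFA1-lo against 3.69 to 5.65 CPM in LFA1-hi. Sums of lymphocyte, erythroid and mast cell or basophil markers stayed at or below 0.235 CPM in every library, with Cd3e and Ncr1 at 0 in all of them. Progenitor markers summed to 5.37 to 10.6 CPM in LFA1-lo against 5.16 to 6.44 CPM in LFA1-hi, and 1 of the 3, Kit, was lower in LFA1-hi (−2.88, edgeR adjusted p 0.0284). Kit was near the floor, at 0.881 to 1.34 CPM in LFA1-lo against 0 to 0.335 CPM in LFA1-hi. Its call was lost without LFA1-hi 2 or LFA1-hi 3, with no filter on low counts and in some other alternatives. Dendritic cell markers (none tested, Flt3 and Ccr7 at 0) summed to 0.119 to 1.175 CPM against 0.224 to 0.573 CPM. Stroma markers, also untested, summed to 0.657 to 1.34 CPM against 0 to 0.448 CPM, and 2 of the 4 (Col1a1 and Col1a2) were at 0 in all LFA1-hi libraries. In bulk RNA, fewer cells of a type and less RNA per cell cannot be told apart, and the part that dividing or other cells have in the results below was not tested.

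Transcripts of the autophagy machinery were mostly lower in macrophages from LFA1-hi monocytes. With edgeR's quasi-likelihood test and Benjamini-Hochberg adjustment over all 11692 tested genes, 11 of the 39 genes (28.2%) fell and 1 (2.56%) rose at an adjusted p under 0.05. Over all tested genes 31.7% passed the same threshold, 15.6% lower and 16.1% higher. With all 6 libraries the share that fell was thus above that of all genes and the share that rose was below it. Without LFA1-hi 2 or LFA1-hi 3, 4 of the 39 genes fell, near the share of all tested genes (9.21% and 10.0%). Without LFA1-hi 1 or LFA1-lo 1, 5 and 6 of the 39 genes fell, only a little above the share of all tested genes (9.84% and 11.5%). Without LFA1-lo 2 or LFA1-lo 3 the share that fell stayed above that of all genes. The log2 fold change (LFA1-hi minus LFA1-lo) was below 0 for 29 of the 39 genes, against 50.4% of all tested genes, and its median was −0.13 against −0.0047. The 11 genes that fell were Gabarapl1, Ulk1, Atg2a, Rb1cc1, Map1lc3b, Nbr1, Atg4b, Ambra1, Wipi2, Sqstm1 and Gabarap, and the gene that rose was Atg4d. The 6 libraries did not overlap between groups for 15 genes that were lower in LFA1-hi and for 4 that were higher, against 22.9% and 24.8% of all tested genes. Scaling by library totals alone, which moved the median of all tested genes to 0.06, left 9 genes lower and 1 higher (Wipi2 and Atg4b were lost), against 1471 lower and 2294 higher of all tested genes in place of 1822 and 1883.

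**Figure D1:**
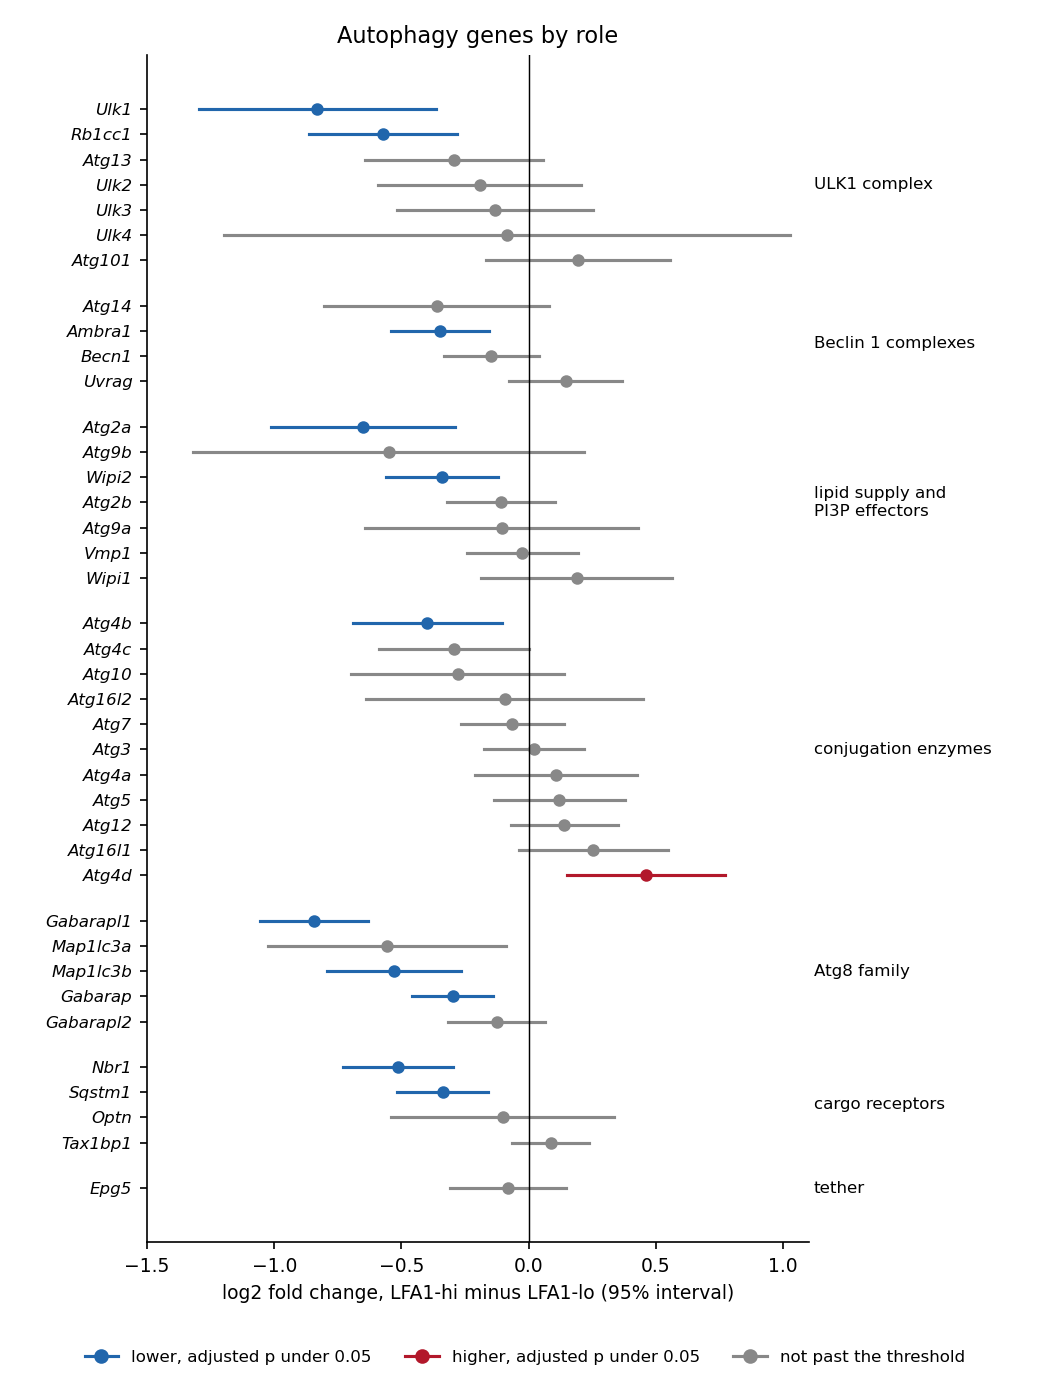
Log2 fold change (LFA1-hi minus LFA1-lo) of each of the 39 autophagy genes, grouped by role, with the 95% interval from edgeR; blue marks genes lower and red genes higher at an adjusted p under 0.05, and grey marks the rest. Most points lie left of 0, all 5 genes of the Atg8 family among them, and Atg4d is the only red point.

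The changes were moderate in size. Among the genes that fell, the level in LFA1-hi was between 0.557 (Gabarapl1) and 0.813 (Gabarap) of that in LFA1-lo. Summed over the 39 genes, the level was 2971 to 3331 CPM in LFA1-lo against 2606 to 2703 CPM in LFA1-hi, so the groups did not overlap in the total either. Per transcript length, Gabarap was the most abundant of these transcripts, with a mean ± SD (n = 3) of 949.8 ± 31.2 TPM in LFA1-lo against 762 ± 26.2 TPM in LFA1-hi (TPM, a share of all transcripts scaled to length), followed by Sqstm1 at 729 ± 59.4 TPM in LFA1-lo against 567 ± 19.0 TPM in LFA1-hi. Ulk4 was the least abundant, at 0.580 ± 0.302 TPM in LFA1-lo against 0.540 ± 0.0721 TPM in LFA1-hi. LFA1-lo replicate 2 was the lowest LFA1-lo library for 26 of the 39 genes, against 38.2% of all tested genes. Of these 26, 20 were lower in LFA1-hi and 6 were higher.

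**Figure D2:**
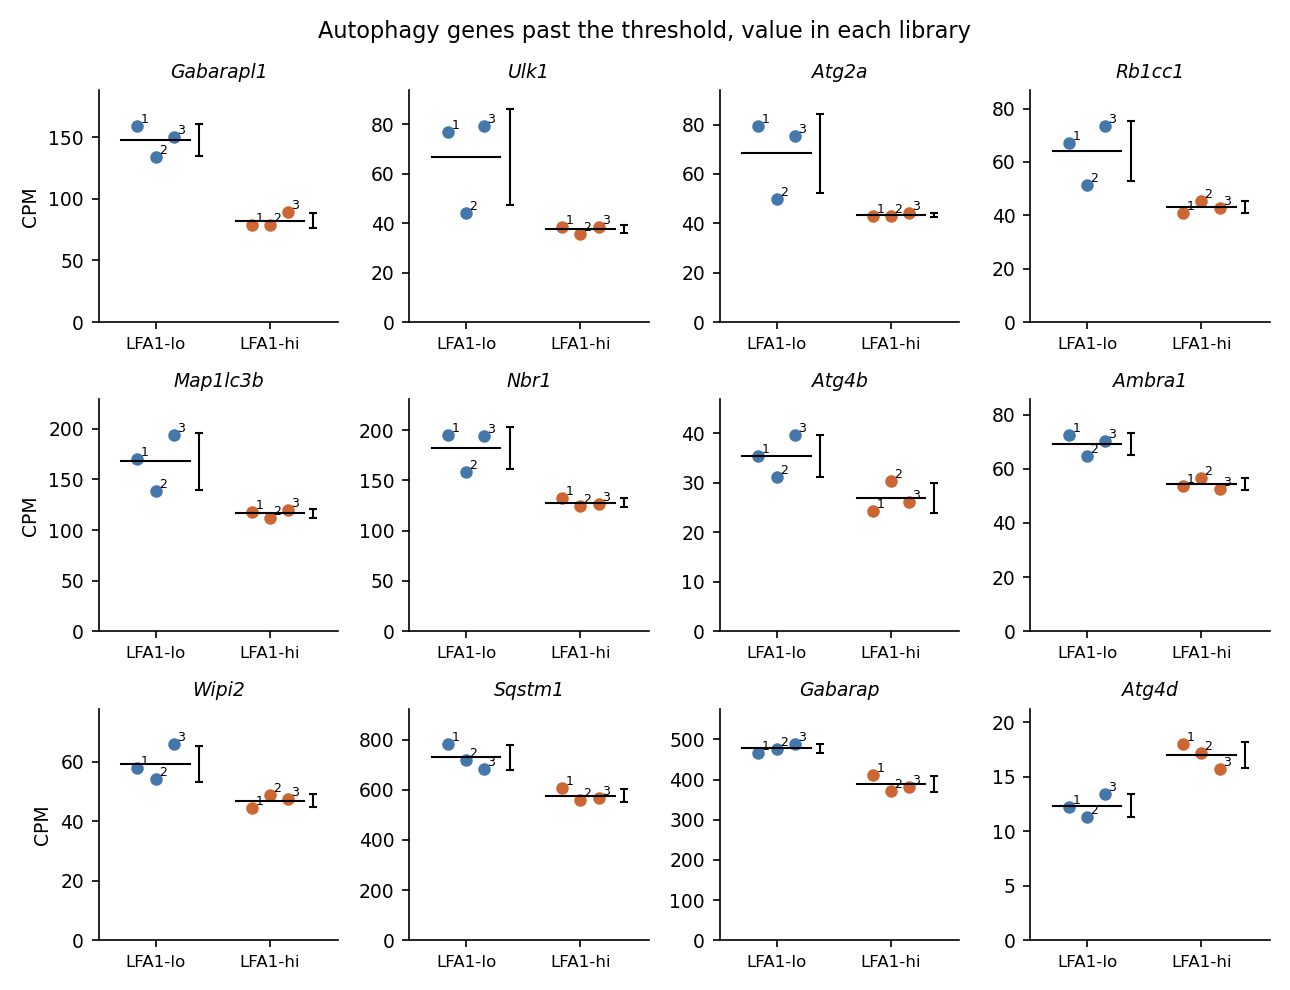
Level in CPM (vertical axis, from 0) of the 12 autophagy genes with an adjusted p under 0.05 in each of the 3 LFA1-lo (blue) and 3 LFA1-hi (orange) libraries, numbered by replicate; the horizontal line is the mean and the bar beside it ±1 SD. The groups do not overlap in any panel, and replicate 2 is the lowest LFA1-lo point in every panel except those of Gabarap and Sqstm1.

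The promoters of these genes are shown because the binding motifs of known autophagy transcription factors can be read in them. Windows from 250 bases before to 50 bases after a RefSeq start site (GRCm38.p6) were at hand for 33 of the 39 genes (39 windows). The E-box GTCACGTG, the preferred site of the Mitf and Tfe family, stood on either strand in 3 of these windows (Atg3, Atg7 and Atg14). It stood in 2.25% of all 32851 windows and 4.24% of the 11322 windows of tested genes. The Atg7 window belongs to a start site inside the gene, which spans chr6:114643127-114860604. Whether that start site is used in these macrophages was not tested. In the lines below capitals mark this motif, read 5′ to 3′ along the gene; Atg14 carries it on the opposite strand, so that its reverse complement is seen.
Atg3 (chr16:45158713-45158760, plus strand): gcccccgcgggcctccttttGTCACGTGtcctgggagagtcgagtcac
Atg7 (chr6:114670942-114670989, plus strand): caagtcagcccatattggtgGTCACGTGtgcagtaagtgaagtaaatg
Atg14 (chr14:47568408-47568455, minus strand): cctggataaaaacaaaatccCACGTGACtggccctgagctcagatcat
None of these 3 genes passed the test: their log2 fold changes were 0.02, −0.06 and −0.36, with edgeR adjusted p-values of 0.873, 0.624 and 0.196. The genes that fell had 11 windows (10 genes, without Rb1cc1), and 0 of them held GTCACGTG. The core CACGTG, which every GTCACGTG also contains, was in 4 of the 39 windows (Atg5 in addition) and in 0 of the 11, against 7.15% of all windows and 10.1% of those of tested genes. The forkhead motif was searched only in the form GTAAACA. That form was in none of the 39 windows, against 3.65% of all and 2.50% of tested windows. Other forms of the motif were not searched. ATAAACA, which differs from it in the first base, can be read in the Gabarapl1 sequence printed below. The presence of other forms in the remaining windows is not known. Motifs outside these windows were not searched.

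The GC box GGGCGG, the motif of Sp-family factors at many housekeeping promoters, was in 22 of the 39 windows and in 7 of the 11 windows of the genes that fell, against 35.7% of all windows and 62.7% of those of tested genes. It is shown here for the 2 genes with the largest falls among the Atg8 family genes that passed the test. The 150 bases before each start site are given, with capitals marking the GC box or its reverse complement CCGCCC.
Gabarapl1 (chr6:129533042-129533191, plus strand): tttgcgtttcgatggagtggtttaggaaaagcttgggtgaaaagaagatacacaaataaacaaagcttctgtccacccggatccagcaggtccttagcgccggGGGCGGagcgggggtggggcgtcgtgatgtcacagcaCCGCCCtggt
Map1lc3b (chr8:121590288-121590437, plus strand): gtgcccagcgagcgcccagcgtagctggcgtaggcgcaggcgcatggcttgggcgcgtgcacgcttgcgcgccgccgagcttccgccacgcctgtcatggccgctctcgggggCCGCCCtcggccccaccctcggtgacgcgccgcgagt
The share of windows with a GC box thus lay near that of all tested genes.

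Within the ULK1 complex, which starts autophagy, the kinase gene Ulk1 and the scaffold gene Rb1cc1 fell and the other 5 of 7 genes did not pass the test (median log2 fold change of the 7, −0.19). Ulk1 (chr5:110784489-110810120, GRCm38) stood at 76.6, 44.3 and 79.3 CPM in LFA1-lo against 38.6, 35.7 and 38.3 CPM in LFA1-hi. All LFA1-hi values lay below all LFA1-lo values, and LFA1-lo 2 was far closer to LFA1-hi than the other LFA1-lo libraries were. The mean ± SD (n = 3) was 66.7 ± 19.5 CPM in LFA1-lo against 37.5 ± 1.64 CPM in LFA1-hi, a log2 fold change of −0.83 (SE 0.20, 95% interval −1.30 to −0.36), with an edgeR adjusted p of 0.0161. Rb1cc1 (chr1:6214634-6276375), which encodes the scaffold FIP200 that holds the complex together, stood at 67.1, 51.6 and 73.5 CPM in LFA1-lo against 40.9, 45.4 and 42.9 CPM in LFA1-hi. Its groups did not overlap, again with LFA1-lo 2 lowest of its group, and the log2 fold change of −0.57 (SE 0.13, 95% interval −0.86 to −0.28) had an edgeR adjusted p of 0.00913.

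The adaptor genes of the complex differed less. Atg13, which links the kinase to Rb1cc1, stood at 65.4, 42.7 and 65.7 CPM in LFA1-lo against 46.2, 47.1 and 48.4 CPM in LFA1-hi, a difference of −0.29 with an edgeR adjusted p of 0.182. LFA1-lo 2 lay below all LFA1-hi libraries, so the groups overlapped. Ulk2, the closest relative of Ulk1, showed the same kind of spread, at 83.7, 59.4 and 103 CPM in LFA1-lo against 70.8, 75.3 and 69.3 CPM in LFA1-hi (−0.19, adjusted p = 0.439). Atg101, the partner of Atg13, was at 0.19 (adjusted p = 0.391), and Ulk3 and Ulk4, relatives outside the core complex, were at −0.13 and −0.09 with adjusted p-values of 0.599 and 0.913. Because Ulk1 fell while Ulk2 did not pass, the TPM ratio of Ulk1 to Ulk2 was also taken, 1 of 5 such ratios chosen after the values were seen. It was 1.03, 0.838 and 0.867 in LFA1-lo and 0.614, 0.532 and 0.622 in LFA1-hi, a log2 difference of −0.63 without overlap (2-sided exact permutation p = 0.1, the smallest that 3 against 3 libraries allow, and 0.1 after Benjamini-Hochberg adjustment over the 5).

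Single libraries mattered for these calls. Without LFA1-lo 2, Ulk1 stood at −1.05 with an edgeR adjusted p of 2.18e-07, and Atg13 (−0.47, adjusted p = 0.000371) and Ulk2 (−0.38, adjusted p = 0.00419) also passed. The Ulk1 call was lost when any LFA1-hi library or LFA1-lo 1 was left out (−0.72 to −0.85, adjusted p of 0.051 to 0.0664), and the Rb1cc1 call without LFA1-hi 1 (−0.53, adjusted p = 0.0536). Over all 15 alternatives the adjusted p ran from 2.18e-07 to 0.0664 for Ulk1, from 1.82e-05 to 0.0536 for Rb1cc1, from 0.000371 to 0.449 for Atg13 and from 0.00419 to 0.981 for Ulk2.

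Of the 4 genes of the Beclin 1 complexes only Ambra1 passed the test (median of the 4, −0.25). Ambra1 (chr2:91730138-91918849) encodes a scaffold that activates Beclin 1 and also directs D-type cyclins to degradation. It stood at 72.6, 64.6 and 70.1 CPM in LFA1-lo against 53.7, 56.7 and 52.5 CPM in LFA1-hi. The groups were well apart, with a log2 fold change of −0.35 (SE 0.09, 95% interval −0.54 to −0.16) and an edgeR adjusted p of 0.0134. That call was lost without LFA1-hi 1, LFA1-hi 3 or LFA1-lo 1 (−0.31 to −0.34, adjusted p of 0.0521 to 0.0711; range over all alternatives 0.00153 to 0.0711).

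Becn1 itself, the common subunit, stood at 78.2, 76.1 and 69.4 CPM in LFA1-lo against 67.2, 67.4 and 67.5 CPM in LFA1-hi. Its LFA1-hi values all lay below its LFA1-lo values, but the difference of −0.15 (95% interval −0.33 to 0.04) had an edgeR adjusted p of 0.210. Atg14, which directs the complex to the forming autophagosome, was at −0.36 with overlapping groups (adjusted p = 0.196) and passed without LFA1-lo 2 (−0.55, adjusted p = 0.00719; range over all alternatives 0.00719 to 0.472). Uvrag, the subunit of the endosomal form of the complex, was slightly higher in all LFA1-hi libraries, at 68.3, 56.2 and 69.6 CPM in LFA1-lo against 69.9, 72.8 and 72.2 CPM in LFA1-hi. That difference of 0.15 did not pass either (adjusted p = 0.295).

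Among the 7 genes of lipid supply and PI3P effectors, Atg2a and Wipi2 fell and the other 5 did not pass (median of the 7, −0.11). Atg2a (chr19:6241478-6262304), a tube-shaped protein that carries lipids into the growing membrane, stood at 79.5, 49.9 and 75.5 CPM in LFA1-lo against 43.1, 43.0 and 44.4 CPM in LFA1-hi. The LFA1-hi libraries lay within a narrow band, and LFA1-lo 2 was the only LFA1-lo library near it. The log2 fold change of −0.65 (SE 0.16, 95% interval −1.01 to −0.29) had an edgeR adjusted p of 0.0144. Wipi2 (chr5:142629533-142669672), the PI3P-binding protein that recruits Atg16l1, stood at 57.8, 54.2 and 66.0 CPM in LFA1-lo against 44.5, 48.9 and 47.3 CPM in LFA1-hi. Its groups did not overlap, and its log2 fold change of −0.34 (SE 0.10, 95% interval −0.56 to −0.12) had an adjusted p of 0.0267.

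The paralogs of both genes did not pass. Atg2b was at −0.11 (adjusted p = 0.423) and Wipi1 at 0.19 (adjusted p = 0.424). In TPM, the ratio of Atg2a to Atg2b was 2.51, 1.82 and 2.45 in LFA1-lo and 1.48, 1.63 and 1.59 in LFA1-hi, and that of Wipi2 to Wipi1 was 1.94, 1.86 and 1.58 against 1.098, 1.298 and 1.28. Both ratios were lower in every LFA1-hi library (log2 differences of −0.52 and −0.55, exact permutation p = 0.1 each), and both were chosen after the values were seen. The membrane scramblase gene Atg9a stood at 48.5, 25.9 and 49.7 CPM in LFA1-lo against 42.3, 34.1 and 38.9 CPM in LFA1-hi with overlapping groups (−0.11, adjusted p = 0.765). Its value turned with single libraries, from −0.35 with an adjusted p of 0.0124 without LFA1-lo 2 to 0.05 without LFA1-lo 3 (range of adjusted p 0.0124 to 0.965). Atg9b (−0.55, adjusted p = 0.254) was below 10 CPM throughout, and the endoplasmic reticulum scramblase gene Vmp1 was at −0.02 (95% interval −0.24 to 0.19, adjusted p = 0.872).

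The Atg2a call was lost without any one LFA1-hi library or LFA1-lo 1 (−0.53 to −0.66, adjusted p of 0.0505 to 0.0636; range over all alternatives 1.73e-06 to 0.0636). Wipi2 kept an adjusted p under 0.05 in 1 of the 6 fits that leave out a library, that without LFA1-lo 2 (range over all alternatives 0.00286 to 0.116), with −0.25 to −0.36 in the other 5.

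Of the 11 genes of the enzymes that attach Atg8 proteins to membranes, 1 fell and 1 rose. That is 9.09% each way, against 15.6% lower and 16.1% higher over all tested genes. The log2 fold changes of the 11 genes ran from −0.40 to 0.46, with 5 below and 6 above 0 (median 0.02). The libraries did not overlap for 2 that were lower (Atg4b and Atg4c) and 2 that were higher (Atg4d and Atg16l1). Over all tested genes 22.9% were lower and 24.8% higher without overlap, so neither count stood above that share. Both that passed encode Atg4 proteases, which trim Atg8 proteins before attachment and release them afterwards. Atg4b (chr1:93754905-93789606), the most active of the 4 on LC3, stood at 35.3, 31.2 and 39.6 CPM in LFA1-lo against 24.3, 30.3 and 26.1 CPM in LFA1-hi. Each LFA1-hi value was below each LFA1-lo value, though by little, and the log2 fold change of −0.40 (SE 0.13, 95% interval −0.69 to −0.11) had an edgeR adjusted p of 0.0425. Atg4d (chr9:21265205-21274837), a family member with roles at mitochondria and in releasing Atg8 proteins, stood at 12.2, 11.3 and 13.4 CPM in LFA1-lo against 17.998, 17.2 and 15.7 CPM in LFA1-hi. It was higher in each LFA1-hi library than in any LFA1-lo library, a log2 fold change of 0.46 (SE 0.14, 95% interval 0.15 to 0.77) with an adjusted p of 0.0302. The TPM ratio of Atg4b to Atg4d, chosen after the values were seen, was 2.96, 2.82 and 3.03 in LFA1-lo and 1.38, 1.80 and 1.70 in LFA1-hi, without overlap (log2 difference −0.86, exact permutation p = 0.1).

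The Atg4b call was lost in 5 of the 6 fits without a library, all but that without LFA1-lo 2 (−0.31 to −0.49, range of adjusted p over all alternatives 0.00400 to 0.161). The Atg4d call was lost without any LFA1-hi library or LFA1-lo 1 (0.42 to 0.52; range 0.02004 to 0.111). Atg4d also overlaps the exons of Kri1 on the opposite strand, and the use of strand in counting is not given in the sources used here; Kri1 was at 0.21 with an adjusted p of 0.451, so the Atg4d value is uncertain.

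For the core enzymes the intervals were narrow. Atg7, the activating enzyme of both conjugation systems, stood at 74.7, 69.9 and 70.9 CPM in LFA1-lo against 71.9, 62.1 and 72.1 CPM in LFA1-hi, a difference of −0.06 (95% interval −0.27 to 0.14, edgeR adjusted p 0.624). Atg3, which hands LC3 to the membrane lipid, was at 0.02 (−0.17 to 0.22, adjusted p = 0.873). These groups overlapped throughout. The Atg12, Atg5 and Atg16l1 genes encode the complex that sets the place of attachment, and they were at 0.14, 0.12 and 0.25 with adjusted p-values of 0.284, 0.456 and 0.169. Atg10 (−0.28, adjusted p = 0.289), Atg4a (0.11, 0.603), Atg4c (−0.29, 0.120) and Atg16l2 (−0.09, 0.796) did not pass either.

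All 5 genes of the Atg8 family were lower in LFA1-hi. Of them 3 fell (Gabarapl1, Map1lc3b and Gabarap), against 15.6% of all tested genes, and the median log2 fold change was −0.53. The libraries did not overlap for any of the 5, against 22.9% of all tested genes that were lower without overlap. Gabarapl1 (chr6:129533192-129542331), a GABARAP-group protein whose gene is a known target of forkhead factors, stood at 159, 134 and 149.7 CPM in LFA1-lo against 78.6, 78.9 and 89.2 CPM in LFA1-hi. The highest LFA1-hi library was well below the lowest LFA1-lo library. Its mean ± SD (n = 3) was 148 ± 12.6 CPM in LFA1-lo against 82.2 ± 6.06 CPM in LFA1-hi, a log2 fold change of −0.84 (SE 0.09, 95% interval −1.06 to −0.63) with an edgeR adjusted p of 0.000249, and it passed in all 15 alternatives (1.23e-12 to 0.00440).

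Map1lc3b (chr8:121590438-121598760), which encodes LC3B, the usual marker of autophagosomes, stood at 171, 139 and 194 CPM in LFA1-lo against 118, 112 and 119 CPM in LFA1-hi. LFA1-hi was uniform and LFA1-lo spread, without overlap, and the log2 fold change of −0.53 (SE 0.12, 95% interval −0.79 to −0.27) had an edgeR adjusted p of 0.00842. It was lost without LFA1-hi 2 (−0.49, adjusted p = 0.0524; range over all alternatives 6.31e-06 to 0.0524). Exons of Zcchc14 on the opposite strand overlap Map1lc3b; Zcchc14 also fell, at 23.1 ± 4.996 CPM in LFA1-lo against 12.0 ± 1.07 CPM in LFA1-hi (−0.95, adjusted p = 0.00327), and reads of one may be counted for the other. Gabarap (chr11:69991370-69994949) stood at 467, 476 and 489 CPM in LFA1-lo against 410.1, 372 and 382 CPM in LFA1-hi. Its fall was small but the spread was smaller, a log2 fold change of −0.30 (SE 0.07, 95% interval −0.46 to −0.14) with an adjusted p of 0.0117, lost without LFA1-hi 2 (−0.26, 0.0745) or LFA1-hi 3 (−0.29, 0.0693; range 0.000915 to 0.0745).

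The remaining family genes were lower in LFA1-hi without passing. Gabarapl2 (chr8:111940703-111952915), also known as GATE-16, stood at 63.7, 61.1 and 60.7 CPM in LFA1-lo against 60.2, 53.1 and 56.7 CPM in LFA1-hi (−0.13, 95% interval −0.32 to 0.06, edgeR adjusted p 0.292). Map1lc3a (chr2:155276364-155278073), which encodes LC3A, stood at 14.03, 10.0 and 16.7 CPM in LFA1-lo against 7.99, 9.81 and 9.97 CPM in LFA1-hi (−0.56, 95% interval −1.02 to −0.09, adjusted p 0.0687). LFA1-lo 2 again lay close to LFA1-hi, and without it Map1lc3a passed (−0.73, adjusted p = 0.00347; range 0.00347 to 0.222).

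Per transcript length, the 5 genes together gave 1530.2, 1394 and 1574 TPM in LFA1-lo and 1173, 1131 and 1135 TPM in LFA1-hi, so that the pool in LFA1-hi was 0.765 of that in LFA1-lo (exact permutation p = 0.1). Gabarap made up most of it, 63.4% ± 2.20 (SD, n = 3) in LFA1-lo and 66.5% ± 1.08 in LFA1-hi, with overlapping groups (exact permutation p = 0.2). The share of Gabarapl1 was 12.3%, 10.8% and 11.1% in LFA1-lo and 7.53%, 8.20% and 8.86% in LFA1-hi. Gabarapl2 held 9.75% ± 0.484 in LFA1-lo and 11.5% ± 0.250 in LFA1-hi. The Gabarapl1 share was lower and the Gabarapl2 share higher in every LFA1-hi library (exact permutation p = 0.1 each, 0.25 after adjustment over the 5 shares). Map1lc3b held 13.4% ± 1.69 against 12.1% ± 0.309 and Map1lc3a 1.97% ± 0.401 against 1.75% ± 0.268, both with overlap (exact permutation p = 0.4 each). As a ratio of TPM, chosen after the values were seen, Gabarapl1 stood above Gabarapl2 in every LFA1-lo library (1.22, 1.08 and 1.21) and below it in every LFA1-hi library (0.640, 0.728 and 0.769).

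**Figure D3:**
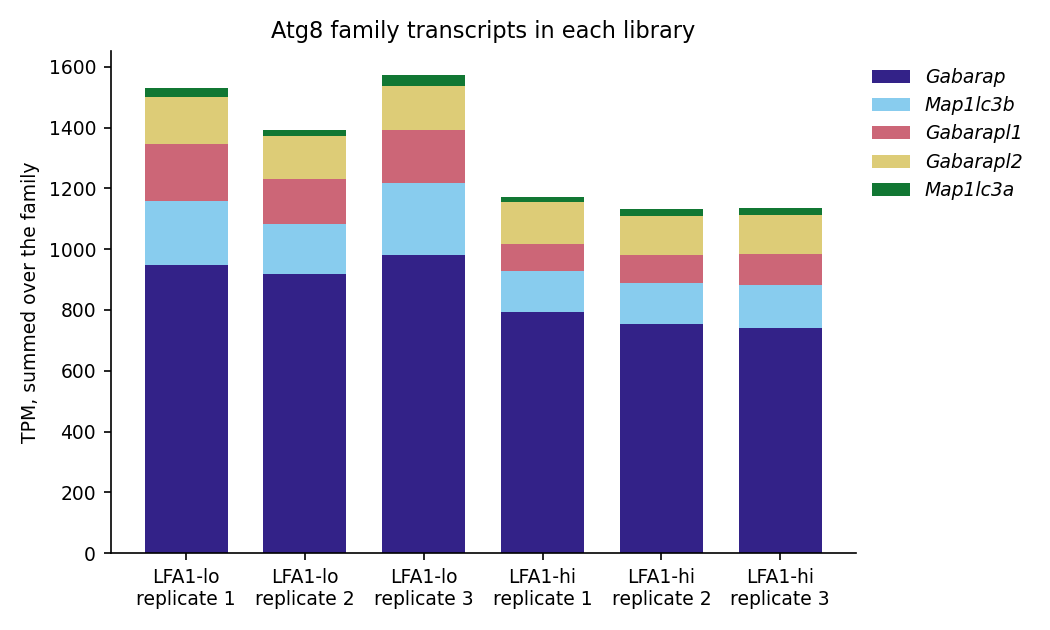
TPM of the 5 Atg8 family genes stacked in each of the 3 LFA1-lo and 3 LFA1-hi libraries (bars from 0). The stacks of LFA1-hi are shorter, at 1131 to 1173 against 1394 to 1574 TPM, Gabarap fills most of each, and the Gabarapl1 layer is thinner in LFA1-hi.

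Of the 4 cargo receptor genes Sqstm1 and Nbr1 fell, and Optn and Tax1bp1 did not pass (median of the 4, −0.22). Sqstm1 (chr11:50200152-50210820) encodes p62, which binds ubiquitin on aggregates and LC3 on the membrane and is itself degraded with its cargo. It stood at 784, 719.5 and 685 CPM in LFA1-lo against 607, 558 and 566 CPM in LFA1-hi. All LFA1-hi libraries were lower, a log2 fold change of −0.34 (SE 0.08, 95% interval −0.52 to −0.16) with an edgeR adjusted p of 0.0110. Nbr1 (chr11:101552107-101581951), a related receptor of the same aggregates, stood at 195, 158 and 194 CPM in LFA1-lo against 132, 124 and 127 CPM in LFA1-hi. LFA1-lo 2 was again the lowest of its group but above all of LFA1-hi, and the log2 fold change of −0.51 (SE 0.10, 95% interval −0.73 to −0.30) had an adjusted p of 0.00355 and passed in all 15 alternatives (4.01e-06 to 0.0297).

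Optn (chr2:5020521-5064399), a receptor for damaged mitochondria and bacteria, stood at 13.0, 13.8 and 13.8 CPM in LFA1-lo against 12.7, 9.23 and 15.8 CPM in LFA1-hi. The LFA1-hi libraries spanned the LFA1-lo values (−0.10, 95% interval −0.54 to 0.34, edgeR adjusted p 0.726). Tax1bp1 (chr6:52713692-52766780), which acts beside Nbr1 on aggregates and also restrains inflammatory signalling, stood at 175, 176 and 179 CPM in LFA1-lo against 184, 189 and 188 CPM in LFA1-hi. It was slightly higher in every LFA1-hi library, but the difference of 0.09 (95% interval −0.07 to 0.24) did not pass (adjusted p 0.369). The Sqstm1 call was lost without LFA1-hi 2 (−0.31, adjusted p = 0.0676) or LFA1-hi 3 (−0.32, adjusted p = 0.0650; range over all alternatives 0.000794 to 0.0676). Its exons overlap those of Mrnip (listed as 3010026O09Rik) on the opposite strand, which was at 1.996 ± 0.786 CPM in LFA1-lo against 3.54 ± 0.781 CPM in LFA1-hi. Epg5, which tethers autophagosomes to late endosomes and lysosomes, was at 62.0, 51.6 and 64.3 CPM in LFA1-lo against 56.2, 53.9 and 58.1 CPM in LFA1-hi with overlapping groups (−0.08, adjusted p 0.580).

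**Figure D4:**
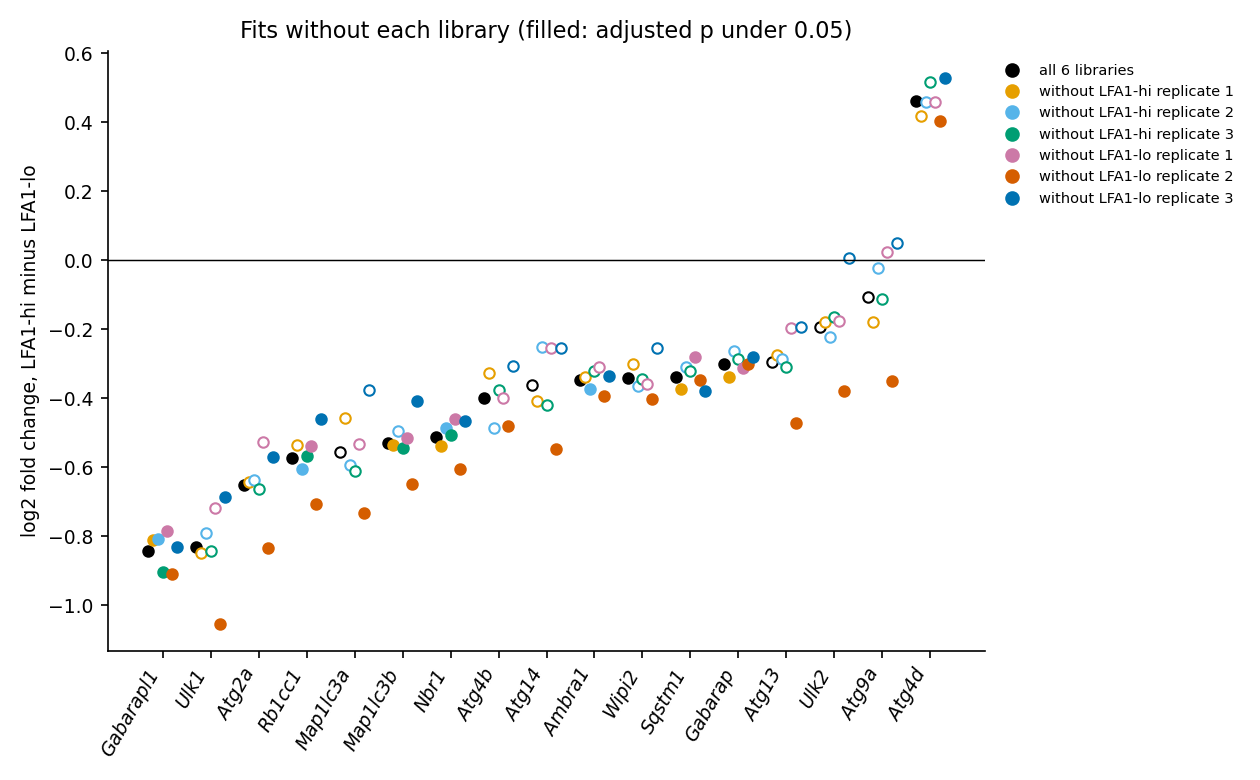
Log2 fold change (LFA1-hi minus LFA1-lo) of the 17 autophagy genes that passed with all 6 libraries or without one of them, for each such fit (colours); filled points have an adjusted p under 0.05. The fit without LFA1-lo replicate 2 gives the lowest point for most genes, and Gabarapl1 and Nbr1 are filled throughout.

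Across the 39 genes, every library changed the count when left out. Without LFA1-lo replicate 2, 16 genes fell and 1 rose, and the median log2 fold change was −0.30; over all tested genes 20.5% fell and 21.8% rose in that fit. Atg13, Atg14, Atg9a, Map1lc3a and Ulk2 passed in addition to the 11. Without LFA1-hi 1, 5 genes fell and 0 rose (9.84% and 9.81% of all tested genes), without LFA1-hi 2, 4 and 0 (9.21% and 9.97%), and without LFA1-hi 3, 4 and 0 (10.0% and 10.4%). Without LFA1-lo 1, 6 fell and 0 rose (11.5% and 11.5%), and without LFA1-lo 3, 9 and 1 (14.6% and 14.9%). The share of the 39 that fell was thus near that of all tested genes without LFA1-hi 2 or LFA1-hi 3. It was only a little above it without LFA1-hi 1 or LFA1-lo 1, and above it without LFA1-lo 2 or LFA1-lo 3. For 8 genes with several listed transcripts (Ambra1, Atg16l1, Atg4c, Atg7, Atg9a, Map1lc3a, Nbr1 and Sqstm1) the abundance-weighted transcript length overlapped between groups, with differences of −8.03 bases (Atg7) to 4.50 bases (Nbr1) and exact permutation p-values of 0.2 to 1, so that a shift between short and long transcripts was not detectable with these libraries.

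Genes that act around the core machinery were read from 8 further lists, of which 87 of 88 genes were found and tested. Of these 21 (24.1%) fell and 2 (2.30%) rose, against 15.6% and 16.1% of all tested genes, and the median was −0.18. The share that fell includes 6 transcription factors, of which Mitf and Tfeb were known to be lower when the lists were drawn up; without that list 15 of 81 (18.5%) fell. By list, all 6 transcription factors fell, 3 of 6 phagophore membrane factors, 3 of 17 organelle receptors and mitophagy genes, 2 of 12 fusion genes, 5 of 25 mTORC1 and amino acid sensing genes (with 2 that rose) and 2 of 6 genes of the oxidase used in LC3-associated phagocytosis. Among the 5 partners of the VPS34 lipid kinase and the 10 AMPK genes, 0 passed in edgeR or DESeq2, with medians of −0.17 and −0.05; 0 and 2 of them had an unadjusted edgeR p under 0.05. Without LFA1-lo 2, 2 genes of each of these lists fell, against 20.5% of all tested genes, which for the 10 AMPK genes is about the same share. For the lists below, counts without a library stand beside shares of all tested genes of 9.21% to 20.5% lower and 9.81% to 21.8% higher.

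**Figure D5:**
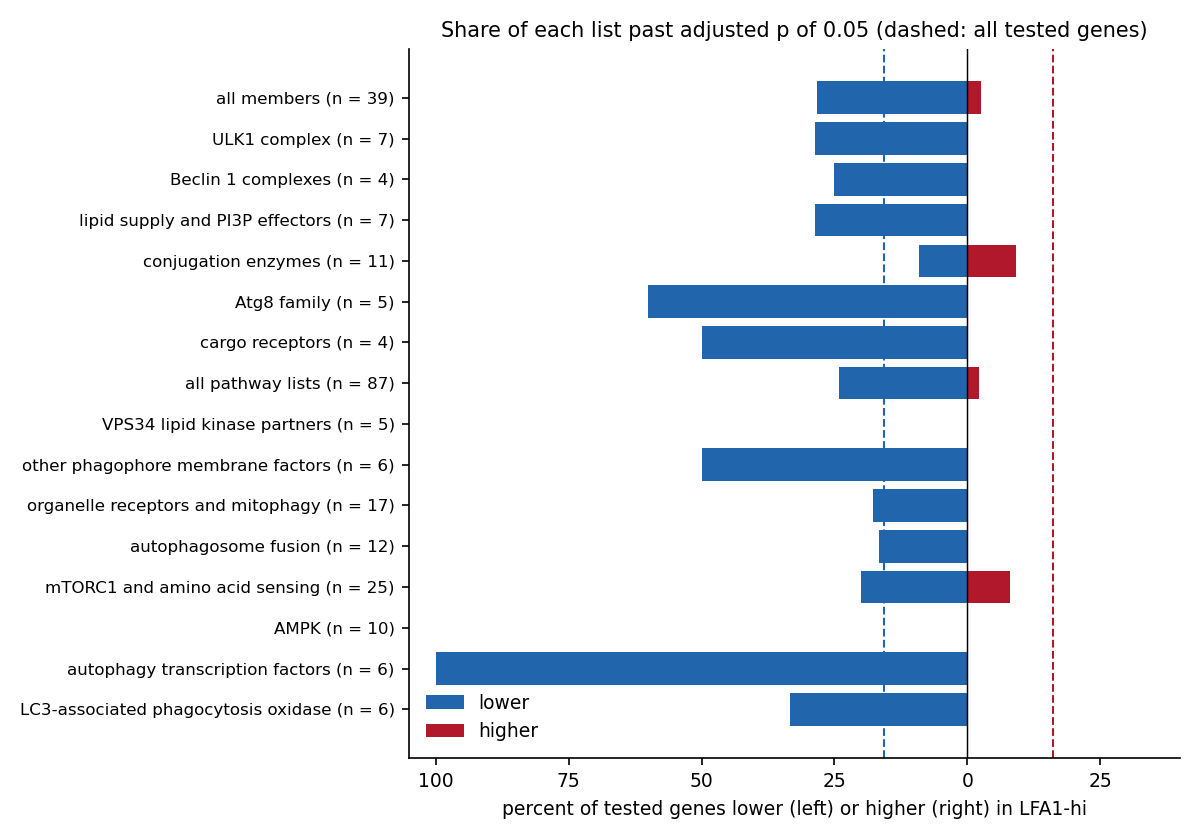
Percent of the tested genes of each role or list that were lower (blue, left) or higher (red, right) in LFA1-hi at an adjusted p under 0.05, with the number tested in brackets; dashed lines mark all tested genes (15.6% lower, 16.1% higher). The red bars all stay short of their line, and the transcription factors and the Atg8 family reach farthest to the left.

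Close to the core machinery, Tecpr1, Wdr45 and Zfyve1 fell among the phagophore membrane factors. Tecpr1, which binds the Atg12 and Atg5 conjugate and attaches Atg8 proteins to damaged lysosomes, stood at 193, 137 and 193 CPM in LFA1-lo against 81.2, 76.9 and 78.9 CPM in LFA1-hi. LFA1-hi was less than each LFA1-lo value by a wide margin, a log2 fold change of −1.14 (SE 0.13, 95% interval −1.44 to −0.85) with an edgeR adjusted p of 0.000294. Wdr45, a relative of the Wipi proteins, was at 17.2 ± 4.49 CPM in LFA1-lo against 9.94 ± 1.24 CPM in LFA1-hi (−0.80, adjusted p 0.0186), and Zfyve1, a marker of the membrane site where autophagosomes form, at 49.6 ± 12.9 CPM in LFA1-lo against 33.9 ± 2.88 CPM in LFA1-hi with overlapping libraries (−0.55, adjusted p 0.0486). The Zfyve1 call was lost in 10 of 15 alternatives (3.08e-05 to 0.166), among them every fit without a library except that without LFA1-lo 2. The Wdr45 call was lost without LFA1-hi 1, LFA1-hi 3, LFA1-lo 1 or LFA1-lo 3 (−0.64 to −0.81; range 0.000144 to 0.0830).

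Among organelle receptors and mitophagy genes, Pink1, Ncoa4 and Calcoco1 fell. Pink1, the kinase that flags damaged mitochondria, stood at 79.7, 43.8 and 74.1 CPM in LFA1-lo against 24.9, 23.3 and 24.0 CPM in LFA1-hi. Every LFA1-hi library was far below every LFA1-lo library, a log2 fold change of −1.45 (SE 0.21, 95% interval −1.93 to −0.98) with an edgeR adjusted p of 0.00141. Ncoa4, the receptor that delivers ferritin for iron release, was at 352 ± 59.5 CPM in LFA1-lo against 173 ± 8.42 CPM in LFA1-hi (−1.03, adjusted p 0.000279). Calcoco1, a receptor for the endoplasmic reticulum and Golgi, was at 54.6 ± 11.2 CPM in LFA1-lo against 28.5 ± 3.80 CPM in LFA1-hi (−0.94, adjusted p 0.00277). Without LFA1-lo 2 this list had 9 genes that fell in place of 3.

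In the fusion list, where 0 genes passed without LFA1-hi 2, 1 without LFA1-hi 1 or LFA1-hi 3 and 3 without LFA1-lo 2, the 2 genes that fell were Vps39 and Rab7. Vps39, a subunit of the tethering complex HOPS, was at 113 ± 17.7 CPM in LFA1-lo against 75.8 ± 8.61 CPM in LFA1-hi (−0.58, edgeR adjusted p 0.00832), and Rab7, the GTPase of late endosomes, at 732 ± 87.7 CPM in LFA1-lo against 581 ± 37.0 CPM in LFA1-hi (−0.33, adjusted p 0.0289). Vps39 lost the call without LFA1-hi 2 (−0.53, 0.0519; range 8.33e-05 to 0.0519) and Rab7 without any LFA1-hi library (−0.28 to −0.38; range 0.0103 to 0.134). Among the oxidase genes, Ncf4, the subunit that binds PI3P, was at 132 ± 24.1 CPM in LFA1-lo against 73.4 ± 3.61 CPM in LFA1-hi (−0.85, adjusted p 0.00116), and Cybb, the catalytic subunit, at 1076 ± 122 CPM in LFA1-lo against 863 ± 16.4 CPM in LFA1-hi (−0.32, adjusted p 0.0270). Without LFA1-lo 2, 4 oxidase genes fell, and 1 did without LFA1-lo 1 or any single LFA1-hi library. The Cybb call was kept only without LFA1-lo 2 among the fits that leave out a library (range 6.54e-05 to 0.117).

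Upstream of ULK1, mTORC1 restrains autophagy when amino acids are plentiful. Its subunit genes Rptor and Akt1s1 (which encodes an mTORC1 inhibitor) fell, as did Flcn, a regulator of the Rag GTPases at the lysosome. Rptor was at 149.7 ± 22.0 CPM in LFA1-lo against 100.4 ± 9.63 CPM in LFA1-hi (−0.58, edgeR adjusted p 0.00624), Akt1s1 at 30.5 ± 0.875 CPM in LFA1-lo against 19.5 ± 0.636 CPM in LFA1-hi (−0.65, adjusted p 0.00171) and Flcn at 60.8 ± 13.1 CPM in LFA1-lo against 42.5 ± 2.81 CPM in LFA1-hi (−0.52, adjusted p 0.0303). Tbc1d7, a subunit of the TSC complex that inhibits mTORC1, rose, at 7.98 ± 0.411 CPM in LFA1-lo against 12.0 ± 1.88 CPM in LFA1-hi (0.59, adjusted p 0.0267). The other 3 of this list that passed, named after their values were seen, were the mTORC1 activator Rheb (0.30, adjusted p 0.0271), the TSC subunit Tsc1 (−0.29, 0.0456) and the lysosomal anchor Lamtor1 (−0.45, 0.0147). Activators and inhibitors of mTORC1 thus stood on both sides. Without LFA1-lo 2, 9 genes of the list fell and 2 rose, and without another library 2 to 3 fell and 0 to 1 rose. Akt1s1 and Rptor passed in every fit without a library. Flcn and Rheb passed in 1 of those 6, that without LFA1-lo 2 (ranges over all alternatives 2.33e-05 to 0.126 and 0.00363 to 0.106), and Tbc1d7 lost the call without LFA1-hi 1, LFA1-hi 3 or LFA1-lo 1 (0.47 to 0.62; range 0.0138 to 0.119). Lamtor1 lost it without LFA1-hi 2 (−0.38) or LFA1-hi 3 (−0.44; range 0.00247 to 0.0794), and Tsc1 in all 6 (−0.23 to −0.34; range 0.0393 to 0.174). Exons of Akt1s1 overlap those of Tbc1d17 on the opposite strand.

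The transcription factor list holds the lysosomal and autophagy activators Mitf, Tfeb and Tfe3, the forkhead factors Foxo1 and Foxo3, and Zkscan3, described as a repressor of autophagy genes. Mitf was at 226 ± 48.5 CPM in LFA1-lo against 91.7 ± 2.01 CPM in LFA1-hi (−1.30, edgeR adjusted p 0.000299), Tfeb at 45.1 ± 2.79 CPM in LFA1-lo against 25.2 ± 3.31 CPM in LFA1-hi (−0.84, 0.000877) and Tfe3 at 172 ± 12.8 CPM in LFA1-lo against 114 ± 3.02 CPM in LFA1-hi (−0.59, 0.000729). Foxo1 was at 26.2 ± 2.98 CPM in LFA1-lo against 18.4 ± 2.46 CPM in LFA1-hi (−0.51, 0.0232), and Foxo3 (−0.51, 0.0183) and Zkscan3 (−0.38, 0.0495), named after their values were seen, also fell. Mitf, Tfeb and Tfe3 passed without any one library, and 3 to 6 of the 6 genes passed in those fits. Foxo1 passed without LFA1-hi 2 or LFA1-lo 2 (range 0.00220 to 0.0992), Foxo3 without LFA1-lo 2 or LFA1-lo 3 (range 1.60e-05 to 0.0806) and Zkscan3 without LFA1-lo 2 (range 0.0395 to 0.167), with −0.41 to −0.52, −0.45 to −0.54 and −0.32 to −0.42 in the fits where the call was lost. The falls of Mitf and its relatives were known when the list was drawn up, so their count is not independent evidence.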

How the data were processed

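The 39 genes and all lists were chosen with earlier results of these data known. Per the labels' protocols, total RNA was freed of ribosomal RNA before random-primed libraries were made. RSEM, Trim Galore, bcl2fastq and the build GRCm38 are listed in the submitters' processing notes; aligner, tool versions, annotation and strand setting were not given in the sources used here. Per the file headers, the deposited expected counts are RSEM's estimated counts per gene, not normalized. TPM (scaled by effective length and to a fixed library total) and FPKM (fragments scaled by length and library size) were deposited beside them and used as given.

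Expected counts were rounded (5.53% to 6.06% of genes per library were not whole). Genes were filtered with filterByExpr, scaled by TMM (factors 0.956 to 1.034) and tested with the robust quasi-likelihood test of edgeR 4.0.16 in R 4.3.3 over the 6 libraries, 3 per group, with Benjamini-Hochberg adjustment over 11692 genes and a threshold of 0.05. The biological coefficient of variation was 15%. CPM are rounded counts scaled to the TMM-scaled library size. Libraries held 15191262 to 17614509 counts. Shares and ratios of TPM were compared with exact permutation tests in scipy 1.17.1 (2-sided).

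Full statistics are given for genes at an adjusted p under 0.05 and for the Atg8 family and cargo receptors, and from each further list for up to 4 genes that passed, with a mean of at least 1 CPM and the largest changes. Some listed genes, such as Rubcn and Retreg1, were matched under older names, and no row matched Vamp7 or Ly6g. Alternatives were RLE size factors, library totals, no filter, at least 10 CPM in 3 libraries, DESeq2 1.42.0, voom and limma 3.58.1 on log2(TPM + 0.1) and log2(TPM + 1), FPKM for shares, an adjusted p of 0.01, each library left out and the replicate number as a block; paralog ratios were added after the values were seen. The edgeR code was tested on simulated counts. It recovered 31 of 100 planted 1.5-fold changes and 83 of 100 planted 2-fold changes, with 6 false calls among 120. Genes that did not pass may therefore still differ by amounts of this size. Gene spans, promoter windows and exon overlaps come from RefSeq (GRCm38.p6) and GENCODE M21, whose exons overlap another gene for 14 of the 39; where strand is not used in counting, such reads cannot be told apart.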

Additional observations from a re-analysis of the deposited data

How the results depend on the processing

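With 3 libraries per group, small differences cannot be told from the spread, and none of the exact tests could go below p = 0.1. DESeq2, RLE size factors, voom, no filter and the filter of 10 CPM each gave 11 of the 39 genes lower and 1 higher. Over all tested genes these settings gave 1638 to 2034 lower and 1655 to 2018 higher. Both log2(TPM) scales gave 10 and 1 of the 39, against 1708 to 1724 and 1746 to 1783 of all tested genes. Library totals gave 9 and 1, against 1471 and 2294. At an adjusted p of 0.01, 4 fell and 0 rose, and of the further 87 genes 11 fell and 0 rose, against 1017 and 1007 of the 11692 tested genes. At that threshold the share of the 39 that fell was only a little above that of all tested genes. Leaving out each library in turn gave 4 to 16 of the 39 genes lower and 0 to 1 higher, and 11 to 39 of the further genes lower and 0 to 2 higher, against 1099 to 2443 and 1169 to 2589 of all tested genes. Library totals gave 4 further genes higher. The 17 genes that passed without LFA1-lo replicate 2 included all 12 that passed with 6 libraries.

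With the replicate number as a block, 10 of the 39 genes fell and 0 rose, Atg4b and Atg4d being lost, and 1692 of all tested genes rose and 1561 fell. Same-numbered libraries did not deviate together (correlations 0.037, 0.018 and −0.072). With 3 libraries per group this cannot tell whether the numbers pair them, and the labels do not say.

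Signs turned only for log2 differences that had not passed. Library totals gave 0.040 for Vmp1. Ulk4 was at 0.035 with voom, 0.019 on log2(TPM + 0.1) and 0.0032 with the replicate block. Leaving out each library in turn spanned −0.20 to 0.12 for Atg16l2, −0.024 to 0.077 for Atg3, −0.10 to 0.0091 for Atg7, −0.35 to 0.049 for Atg9a, −0.30 to 0.083 for Optn, −0.38 to 0.0058 for Ulk2, −0.42 to 0.30 for Ulk4 and −0.080 to 0.065 for Vmp1. For transcript length it spanned −25.1 to 6.38 bases for Ambra1, −7.11 to 1.80 for Atg16l1, −19.4 to 25.2 for Atg4c, −2.94 to 3.32 for Map1lc3a and −6.10 to 19.0 for Nbr1. The cause of these turns was not tested.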
